A study of Homo sapiens with 22 samples.

Results

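The regions described here are 2713 stretches of the K562 genome that carried a peak of H3K27ac (histone H3 acetylated on lysine 27) in both libraries taken after 6 h of PMA and in both taken after 72 h, and in neither library of untreated cells. They were picked from the 94896 regions on chromosomes 1 to 22 and X of the authors' deposited table of H3K27ac counts, by an overlap of at least 1 bp with the authors' peak lists, and are called gained and kept regions below. K562 is a human leukemia cell line, labelled wild type in every sample and grown in RPMI medium with serum and antibiotics. PMA (phorbol 12-myristate 13-acetate) was added at 25 nM to start megakaryocyte differentiation, and cells fixed with formaldehyde were profiled after 0, 6 or 72 h, the 0 h cells being the untreated controls. The assay, CNR in the titles, is read as CUT&RUN, in which an antibody directs a nuclease that frees the DNA beside its target. The 22 libraries fall into 11 groups of 2: H3K27ac, Jun and CTCF at all 3 times, and Rad21 at 0 and 72 h. The labels do not say whether the 2 libraries of a group came from separate cultures, so p-values measure the spread between these libraries, which may be technical. The model is 1 cancer cell line driven by 1 chemical, no RNA was analysed here, and in bulk chromatin more cells with a mark and more of it per cell cannot be told apart.

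PMA takes the place of diacylglycerol, the lipid messenger that switches on protein kinase C, and through the MAP kinase cascade it raises the activity of AP-1, a dimer of Jun with Fos or a related protein. H3K27ac is laid down by the acetyltransferases p300 and CBP at promoters and enhancers in use, so a new acetylated stretch is a common sign of an enhancer coming into use. Rad21 is a subunit of cohesin, the ring that extrudes chromatin loops and halts at sites of CTCF, and cohesin is also found at enhancers that lack CTCF. In K562 the phorbol ester is known to stop division, to make cells spread and stick, and to bring on surface proteins of platelets.

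The cells' identity at 0 h was read from H3K27ac peaks within 5000 bp of marker genes. The erythroleukemia markers EPOR, GATA1, HBG1, KLF1, LMO2, TAL1 and TFRC had a peak in both untreated libraries, as did 3 of 7 lymphoid markers, 2 of 4 epithelial markers and 1 of 4 stromal markers. Counts summed over regions ranged from 2553677 to 6068421 per CTCF library and from 4398797 to 7285286 per Rad21 library. The H3K27ac libraries of 72 h were the deepest of that antibody, at 26216577 and 27266241 counts. Those of 0 h held 19963875 and 21772218, and those of 6 h 12634261 and 18775241. Depth in Jun was also greatest at 72 h, with 17245043 and 18883962 counts. Its untreated libraries had 7952946 and 8600736, and its 6 h libraries only 4766421 and 5531183. How far depth set the peaks called at each time was not tested, so peak shares at different times are not separated from it. Regions of the mitochondrial chromosome took 18.1 to 27.7% of Jun counts at 0 and 6 h against 8.58 and 9.07% at 72 h. In CTCF they took 17.8 to 30.5% at 0 and 6 h against 9.55 and 9.63%, and at most 1.47% in H3K27ac. Replicates differed by more than counting noise in every group, by 2.15 to 6.02 times in variance, so none looked like a library deposited 2 times.

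Most gained and kept regions lay away from promoters, and 110 of the 2713 covered whole the 250 bases before a RefSeq start site. The covered windows numbered 127, from 120 genes, and 4 of them belonged to genes of the pathway lists used below. The windows of 3 listed genes named by the rule are shown as examples and do not stand for the class. Their GC content was 68.4% (NFKB2), 65.6% (CXCL1) and 80% (KLF2), against a median of 57.2% over the covered windows. Each is printed 5′ to 3′ on the strand of its gene and ends at the base before the start. The sequences are RefSeq's on GRCh38.p14, and capitals mark letters that matched an EGR, ETS or NF-kappaB motif on either strand. NFKB2 (chr10:102395455-102395704, plus strand) encodes a subunit of NF-kappaB, CXCL1 (chr4:73869143-73869392, plus strand) a chemokine that draws neutrophils, and KLF2 (chr19:16324576-16324825, plus strand) a zinc finger transcription factor.
NFKB2: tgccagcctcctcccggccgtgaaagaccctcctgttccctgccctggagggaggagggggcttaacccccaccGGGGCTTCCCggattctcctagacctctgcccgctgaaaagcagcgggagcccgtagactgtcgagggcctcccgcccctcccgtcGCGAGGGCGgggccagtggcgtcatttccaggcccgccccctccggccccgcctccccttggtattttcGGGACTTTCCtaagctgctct
CXCL1: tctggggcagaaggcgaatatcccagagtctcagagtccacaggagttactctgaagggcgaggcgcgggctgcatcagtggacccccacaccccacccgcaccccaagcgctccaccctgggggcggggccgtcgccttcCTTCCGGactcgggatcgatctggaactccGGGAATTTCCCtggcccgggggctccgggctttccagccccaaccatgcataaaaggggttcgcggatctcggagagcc
KLF2: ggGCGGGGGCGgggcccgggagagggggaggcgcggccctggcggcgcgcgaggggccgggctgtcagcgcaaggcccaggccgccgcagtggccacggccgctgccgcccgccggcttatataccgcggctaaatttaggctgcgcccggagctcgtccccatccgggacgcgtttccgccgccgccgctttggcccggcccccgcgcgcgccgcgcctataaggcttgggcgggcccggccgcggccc
In the NFKB2 window NF-kappaB letters began 176 and 21 bp before the start and EGR letters 90 bp before it. In the CXCL1 window ETS letters began 109 bp before the start, and NF-kappaB letters began 79 bp before it on one strand and 78 bp before it on the other. The KLF2 window held EGR letters 248 bp before the start. A match is a description of the letters, not evidence that a factor was bound.

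AP-1 letters (TGANTCA, which reads the same on both strands) stood in 30 of the 127 covered windows, or 23.6%. The share was 6.54% of all 34961 promoter windows of this length, 4.22% of the 9056 windows covered by regions with peaks at every time, and 26.1% of the 310 windows covered by regions with peaks at 72 h only. The differences between these shares were not tested. The cAMP response element TGACGTCA, which also reads the same on both strands, stood in 0.787% of the 127 windows and 1.65% of all. RUNX letters (TGTGGT, either strand) stood in 17.3% against 11% of all windows, GATA letters (AGATAA, either strand) in 4.72% against 9.18%, and ETS letters (CCGGAAG, either strand) in 4.72% against 8.52%. EGR letters (GCGNGGGCG, either strand) stood in 10.2% against 8.44%, NF-kappaB in 11.8% against 9.97% and the CArG box in 1.57% against 1.16%; matches to different motifs may overlap. The median GC content was 57.2% in the covered windows, 58.4% in all and 64.4% in those of regions with peaks at every time.

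The windows of 4 genes with AP-1 letters are shown next, with those letters in capitals, because Jun was measured over them; they were chosen after their values were seen. LOC105372663 (chr20:51366185-51366434, plus strand) and LOC124904554 (chr1:234657198-234657447, minus strand) are long noncoding RNA genes, KCNMA1 (chr10:77350762-77351011, minus strand) encodes a calcium-activated potassium channel and DHRS9 (chr2:169069313-169069562, plus strand) a dehydrogenase of the retinol pathway.
LOC105372663: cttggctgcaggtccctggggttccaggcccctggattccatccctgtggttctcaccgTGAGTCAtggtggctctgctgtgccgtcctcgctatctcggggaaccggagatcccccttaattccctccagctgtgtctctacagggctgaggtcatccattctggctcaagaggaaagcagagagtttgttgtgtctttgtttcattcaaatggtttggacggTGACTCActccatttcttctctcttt
KCNMA1: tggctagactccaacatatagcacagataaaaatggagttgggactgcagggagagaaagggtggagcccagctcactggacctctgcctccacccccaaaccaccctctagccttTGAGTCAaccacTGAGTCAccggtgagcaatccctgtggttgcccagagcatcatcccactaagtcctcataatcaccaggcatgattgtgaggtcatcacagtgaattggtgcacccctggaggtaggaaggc
LOC124904554: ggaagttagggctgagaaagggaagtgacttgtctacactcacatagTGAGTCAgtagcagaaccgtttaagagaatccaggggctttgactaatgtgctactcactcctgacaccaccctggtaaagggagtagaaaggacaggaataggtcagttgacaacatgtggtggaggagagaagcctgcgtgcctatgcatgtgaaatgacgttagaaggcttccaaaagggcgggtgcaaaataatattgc
DHRS9: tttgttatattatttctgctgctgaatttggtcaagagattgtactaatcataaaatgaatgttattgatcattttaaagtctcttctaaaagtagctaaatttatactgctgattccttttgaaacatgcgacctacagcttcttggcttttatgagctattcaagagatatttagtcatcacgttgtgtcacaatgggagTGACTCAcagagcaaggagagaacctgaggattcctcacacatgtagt
The AP-1 letters began 191 and 26 bp before the start of LOC105372663, 134 and 122 bp before that of KCNMA1, 203 bp before that of LOC124904554 and 48 bp before that of DHRS9. Jun at LOC105372663 was 27 and 27.8 CPM at 0 h, 50.6 and 72.8 CPM at 6 h and 67.2 and 63.5 CPM at 72 h, where CPM is counts per 1e6 counts after edgeR's TMM scaling. Both later times lay above 0 h without overlap (log2 fold change 1.18 ± 0.21 SE, adjusted p = 0.000251 at 6 h; 1.25 ± 0.20, adjusted p = 2.63e-05 at 72 h; edgeR quasi-likelihood test, Benjamini-Hochberg over all Jun regions, as for every adjusted p below). At LOC124904554 Jun was 14.7 and 11.9 CPM at 0 h, 28.1 and 38.9 at 6 h, then 22.9 and 22.7 at 72 h, higher at both times (adjusted p = 0.000101 and 0.00326). At DHRS9 it was 16.8 and 14.9 CPM, then 23.2 and 39.8, then 16.3 and 17.9, so that 6 h stood above 0 h (adjusted p = 0.0028) and 72 h did not pass the test (adjusted p = 0.70). KCNMA1 was the exception of the 4 at 6 h: its Jun values of 30.6 and 38.4, 41.3 and 58.0, and 49.8 and 44.5 CPM passed the test at neither time (adjusted p = 0.0668 and 0.0631). All 30 windows with AP-1 letters overlapped a Jun region. Jun was called higher at 18 windows and lower at 1 at 6 h (median log2 fold change 0.96), and at 16 and 2 at 72 h (0.76). Of the 97 windows without the letters, 76 overlapped a Jun region. It was higher at 29 and lower at 8 at 6 h (0.50), and at 26 and 21 at 72 h (0.19). Over all gained and kept regions the shares were 56.6% higher and 2.76% lower at 6 h, and 54.0% and 9.41% at 72 h. Among all Jun regions tested they were 13.1% and 12.2%, then 28.0% and 25.7%. The difference between the 2 kinds of window was not tested.

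Acetylation over the gained and kept regions is described first, without tests, because H3K27ac peaks chose them. The median region held 2.44 and 2.42 CPM of H3K27ac in the untreated libraries, 11.3 and 10.6 CPM at 6 h and 14.2 and 14.1 CPM at 72 h. Between the lower and upper quartile the regions ran from 1.25 to 4.66 and 1.21 to 4.69 CPM at 0 h, from 7.35 to 18.3 and 6.50 to 18.2 CPM at 6 h, and from 7.20 to 27.5 and 6.92 to 28.7 CPM at 72 h. The rise at 6 h in the bulk of the regions is what the rule selects for. The upper quartile went on upward to 72 h while the lower quartile stood about where it was at 6 h. Regions with peaks at every time, 17164 in number, had medians of 31.6 and 32.5, 24.7 and 26.1, and 21.7 and 22.4 CPM. The 16169 regions with peaks at 72 h only had 0.681 and 0.632, 2.03 and 1.82, and 5.50 and 5.46 CPM, and 273 regions had peaks at 6 h only. CPM is not divided by width, and the median width was 1256 bp in gained and kept regions (245 to 3503 bp), 1721 bp in those with peaks at every time, 840 bp in those at 72 h only and 623 bp over all regions.

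**Figure D1:**
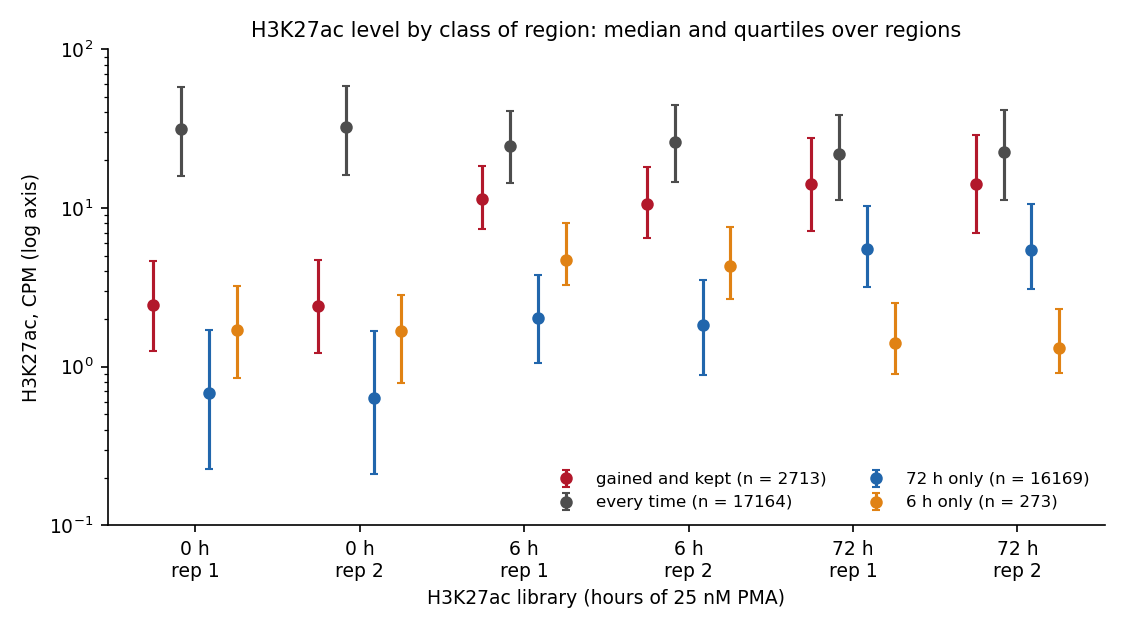
H3K27ac CPM (log axis) in each of the 6 H3K27ac libraries, for gained and kept regions and 3 other classes of region; points are medians over regions and bars run from the lower to the upper quartile. Gained and kept regions move from medians of 2.44 and 2.42 at 0 h to 11.3 and 10.6 at 6 h, then 14.2 and 14.1 at 72 h, between the regions with peaks at every time and those at 72 h only.

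H3K27ac had a median log2 fold change of 2.08 at 6 against 0 h and 2.37 at 72 against 0 h, 2 comparisons that share the untreated libraries, and 0.25 at 72 against 6 h. Over all regions tested the medians were 0.20, 0.18 and 0.02, and other scalings moved them to as much as 0.55, 0.82 and 0.30. At 6 against 0 h edgeR's adjusted p under 0.05 called 2563 of the 2713 higher and 22 lower, where 32.3% of all 94865 regions tested were called higher and 26.3% lower. At 72 against 0 h it called 2439 higher and 79 lower (43.4% and 38.1% of all), and at 72 against 6 h 1237 higher and 591 lower (33.1% and 30.8% of all). The rule used these contrasts, so nothing is read from the counts.

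A peak list is a threshold on signal over surroundings, and 59 of the regions had a log2 fold change below 0 at 6 against 0 h, against their description as gained. Their median H3K27ac was 22.9 and 21.9 CPM at 0 h, 18.7 and 18.6 CPM at 6 h and 19.9 and 20.0 CPM at 72 h. Of these 59, 29 (49.2%) lay within 1000 bp of a peak of untreated cells, against 7.69% of the other 2654. One of these 59 lies inside CPED1 (chr7:121041415-121043075): 215 and 206 CPM at 0 h, 103 and 131 at 6 h, then 92.4 and 105 at 72 h, 818 bp from a peak of untreated cells. Of all 2713, 233 lay within 1000 bp of such a peak and had medians of 7.72 and 8.01, 15.3 and 15.7, and 15.7 and 16.3 CPM, while the other 2480 had 2.21 and 2.21, 11.1 and 10.2, and 14.1 and 13.9 CPM.

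The number of regions depends on where a peak is called. By the authors' -log10 q in their weakest later library, the members just inside the rule were at RALY (2.56), ADAMTS14 (2.65) and SIAH1 (2.70). Median -log10 q of the members' peaks was 7.37 and 8.57 in the 6 h libraries, where 2055 and 1700 were under 10, and 17.7 and 19.4 at 72 h. Just outside the rule were 2987 regions with a peak in exactly 3 of the 4 later libraries and none at 0 h, with median H3K27ac of 1.82 and 1.74, 5.95 and 5.56, and 8.22 and 7.98 CPM. A further 1020 regions had peaks in all 4 later libraries and in exactly 1 of the 0 h libraries, with 5.74 and 6.06, 12 and 11.7, and 12.1 and 12.2 CPM. Without 6 h replicate 1 the rule would hold 4176 regions, and leaving out another library gave 2816 to 4020.

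Gained and kept regions were spread over the genome as single stretches, mostly inside genes and far from start sites. Of the 2713, 1555 (57.3%) lay in the span of a protein-coding gene, 407 (15.0%) only in the span of another gene and 751 (27.7%) outside every span. These span shares were not taken over all H3K27ac regions. The median distance to a start site was 19091 bp over the 2610 regions for which the RefSeq table used gave one. It was much the same, 19406 bp, over the 90899 of all H3K27ac regions with one. Of the 2610, 250 (9.58%) lay within 1000 bp. The same share was 15.7% over all regions, 47.5% in those with peaks at every time and 5.53% in those with peaks at 72 h only. The median distance to an H3K27ac peak of untreated cells was 12106 bp, with 27.7% of the regions within 5000 bp and 16.0% beyond 50000 bp. In the 72 h only class 17.8% lay within 5000 bp and 33.8% beyond 50000 bp. Over all regions, 39.5% of which overlap a peak of untreated cells, these shares were 55.6% and 15.4%. None of these differences was tested.

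**Figure D2:**
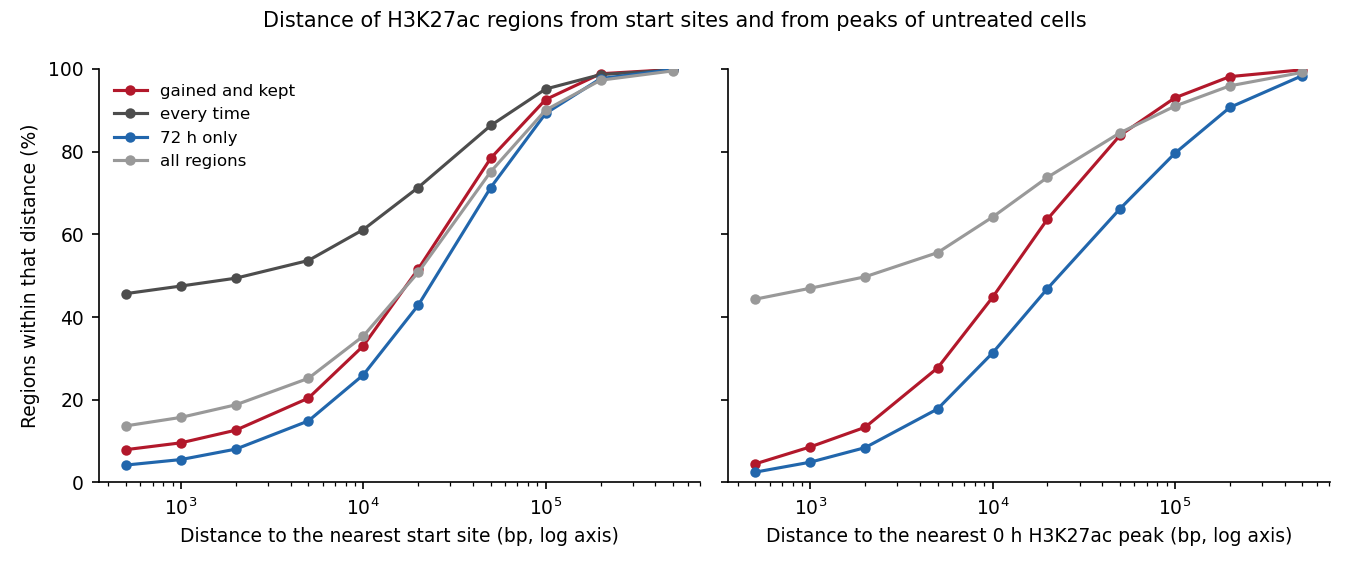
Share of H3K27ac regions (percent) within a given distance (bp, log axis) of the nearest RefSeq start site (left) and of the nearest H3K27ac peak of untreated cells (right), by class; regions with peaks at every time overlap such a peak by rule and are left out on the right. Within 1000 bp of a start site lay 9.58% of gained and kept regions and 47.5% of those with peaks at every time, and within 1000 bp of a 0 h peak lay 8.59% of gained and kept regions.

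Of the 2713 regions, 2474 had no other member within 10000 bp, and 239 (8.81%) formed 116 runs of 2 or more. No run held over 3 regions. Runs of 3 stood inside RBMS2, which encodes an RNA-binding protein (chr12:56573594-56582733), at CAMK2G and PLAU, and at SH2B3, an adaptor that restrains signalling from the thrombopoietin receptor. Runs of 3 also stood at C1orf198, at SSUH2, at ZNF706 and beside RHOB, a small GTPase gene. The genes paired with the most regions were CNIH3, HIVEP3, LOC105369844, LRRC8C, MICAL2 and NSMCE2, with 5 each, and these are long genes, of 103710 to 529570 bp. AGO2, CYFIP1, DPH6-DT and ERGIC1 followed with 4 each, as did 11 other genes, RUNX1, PXN, NFATC2 and RBMS2 among them. CYFIP1, a regulator of actin branching, held gained and kept regions as 4 of the 8 H3K27ac regions in its span, and MICAL2, an enzyme that oxidizes actin, as 3 of 55, its other regions lying outside.

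Jun already had peaks at many of these places before PMA was added, and at 6 h it was called higher over 56.6% of its regions there, or 42.0% to 59.6% with 1 library left out. A Jun peak overlapped 49.98 and 53.4% of the 2713 regions in the untreated libraries, 70.4 and 84.9% at 6 h, then 95.3 and 95.2% at 72 h. The Jun lists differ in length, with 31637 and 35072 peaks at 0 h, 23946 and 35376 at 6 h, then 92329 and 99102 at 72 h, so that over all H3K27ac regions the shares were 26.2 and 28.5, 18.5 and 27.5, and 57.7 and 59.6%. Between 0 and 6 h the share thus went up over these regions where the lists were shorter or of like length. Both Jun libraries had a peak at each of the 3 times over 1027 regions (37.9%). No peak at 0 h and a peak in both libraries at 6 and at 72 h was seen over 533 (19.6%), and 87 (3.21%) had no Jun peak in any library. Among regions with H3K27ac peaks at 72 h only, the first pattern held for 3.77% and the second for 6.14%, and among those with peaks at every time for 35.9% and 0.821%.

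**Figure D3:**
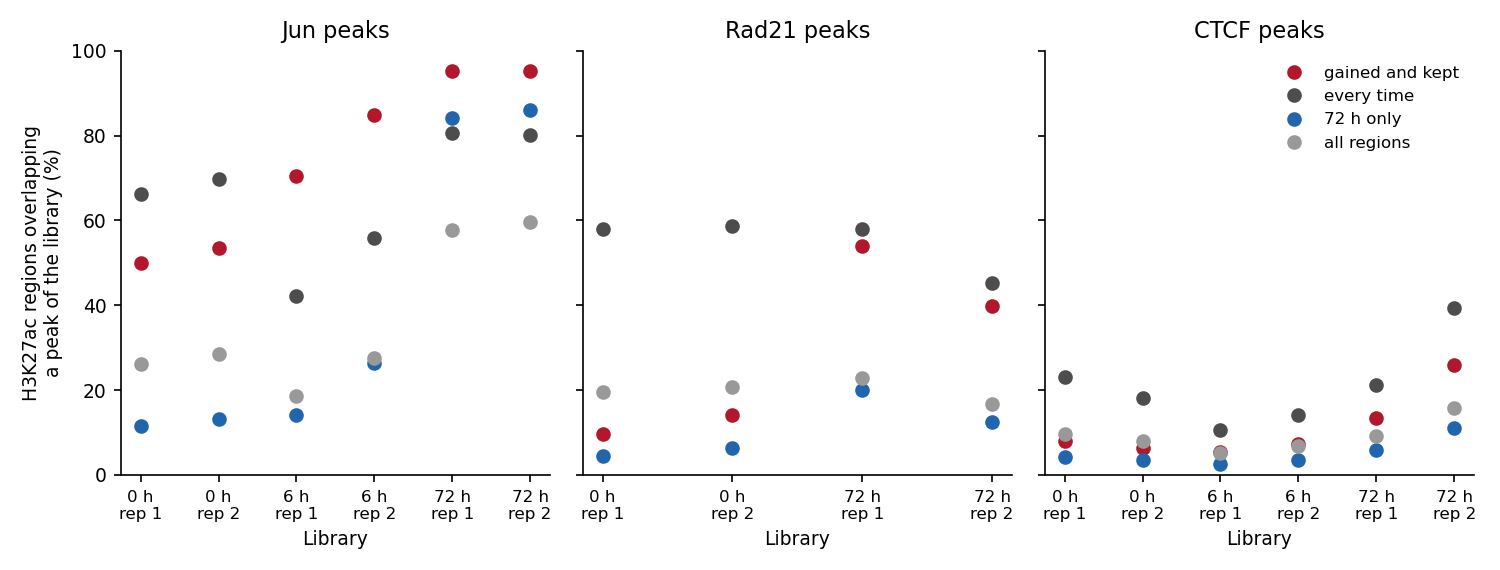
Share of H3K27ac regions (percent) that overlap a peak of Jun, Rad21 or CTCF in each library, 1 point per library and class of region. Over gained and kept regions Jun peaks go from 49.98 and 53.4% to 70.4 and 84.9% and 95.3 and 95.2%, Rad21 peaks from 9.69 and 14.1% at 0 h to 53.9 and 39.8% at 72 h, and CTCF peaks stay at or below 25.9%.

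The authors' Jun table holds 3007 regions that overlap 2657 of the gained and kept regions, and 3003 of them had enough counts to be tested. Their median Jun level was 7.0 and 7.31 CPM at 0 h, 13.2 and 15.5 CPM at 6 h and 12.6 and 12.4 CPM at 72 h, with both later times above 0 h and no overlap of the library medians. At 6 h their median log2 fold change from 0 h was 0.89 (quartiles 0.29 and 1.54), against 0.06 over all 132947 Jun regions tested. Jun was called higher at 1702 of the 3007 (56.6%) and lower at 83 (2.76%), where 13.1% of all Jun regions tested were called higher and 12.2% lower, and 15.9% and 17.8% of those overlapping any H3K27ac region. DESeq2 called 45.8% higher. Without 0 h replicate 1, 0 h replicate 2, 6 h replicate 2 or 72 h replicate 2 the share was 45.1%, 47.6%, 42.0% and 46.3%. With 1 library left out, the regions called lower numbered from 51 without 0 h replicate 2 to 117 without 6 h replicate 2. Jun over regions with H3K27ac peaks at every time had a median log2 fold change of -0.40, and over regions at 72 h only of 0.44; the differences between classes were not tested.

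At 72 against 0 h, which shares the untreated libraries with the first comparison, the median log2 fold change was 0.70, against 0.17 over all Jun regions. Jun was called higher at 1625 (54.0%) and lower at 283 (9.41%), where 28.0% of all Jun regions were called higher and 25.7% lower, and 30.2% and 32.8% of those overlapping any H3K27ac region. Over regions with H3K27ac peaks at 72 h only, 66.0% were higher and 3.52% lower, with a median of 1.30. Over those with peaks at every time 3.71% were higher and 60.2% lower, with a median of -0.85. Scaling by total counts, or by factors taken only from regions with peaks in all libraries, raised the median of all Jun regions to 0.73 and 0.94. The median over gained and kept regions went to 1.26 and 1.48. The median over gained and kept regions was 0.61 with DESeq2 and 0.61 with only 2 times fitted (79.7% of calls higher). With -log10 q of at least 10 asked of all 6 H3K27ac lists the rule held 867 regions, of which 426 were among the 2713. Over those 867 the Jun median was 0.34 (75.6% of calls higher). Of the calls over the 2713, 85.2% were higher as fitted, 96.8% with total counts and 97.8% with those factors. The lower calls numbered 161 without 72 h replicate 1 and 399 without 6 h replicate 2. From 6 to 72 h the direction of Jun rested on the scaling: the median was -0.24 as fitted, with 205 regions (6.82%) higher and 707 (23.5%) lower beside 12.7% and 13.5% of all and 16.0% and 15.2% of those overlapping any H3K27ac region. Total counts gave a median of 0.12 with 534 higher and 172 lower, and the factors from regions with peaks in all libraries gave 0.32 with 959 higher and 92 lower. The share of Jun counts on the mitochondrial chromosome fell over the same step, as given above, and total counts without that chromosome gave a median of -0.06 with 343 higher and 396 lower. The lower calls of this step ran from 4.32% without 72 h replicate 2 and 5.12% without 72 h replicate 1 to 30.6% without 6 h replicate 1, and were 12.6% without 6 h replicate 2. The higher calls were 2.00% without either 72 h replicate.

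**Figure D4:**
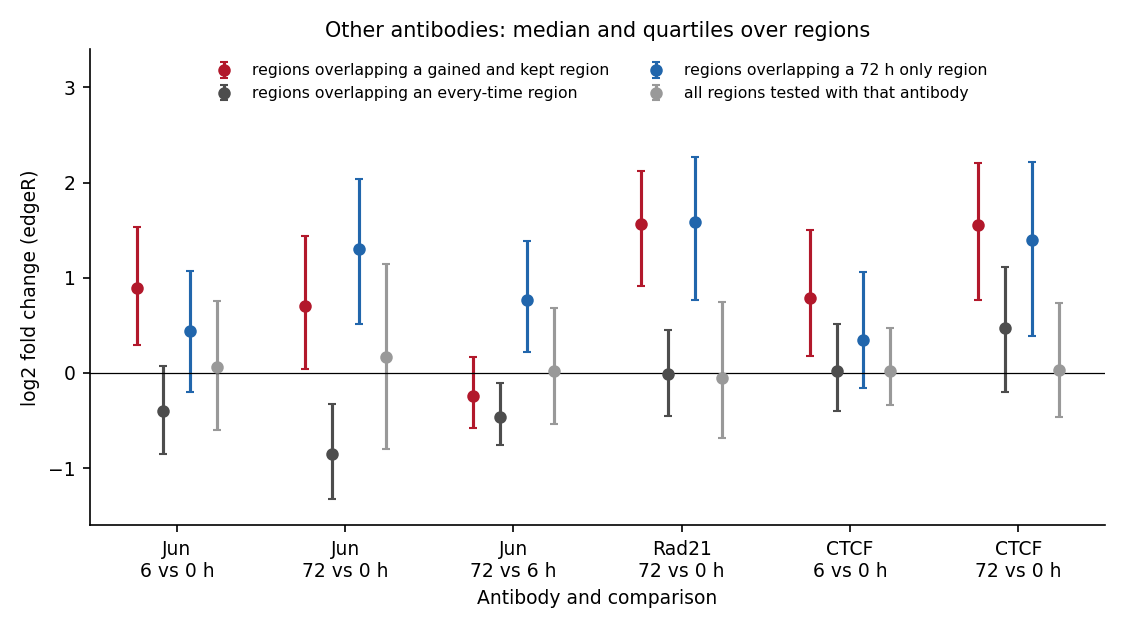
Log2 fold changes from edgeR of Jun, Rad21 and CTCF regions that overlap gained and kept regions, 2 other classes of H3K27ac region, or any tested region of that antibody; points are medians over regions and bars run between quartiles. Over gained and kept regions the medians were 0.89, 0.70 and -0.24 for Jun, 1.56 for Rad21, and 0.79 and 1.56 for CTCF; the Jun change from 6 to 72 h turned positive under other scalings.

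Set side by side, 1351 Jun regions were called higher at both 6 and 72 against 0 h, 340 at 6 h with no call at 72 h, 274 at 72 h with no call at 6 h, and 69 lower at both. A further 203 were lower at 72 h with no call at 6 h, and 741 had no call at either time. These joint counts were not taken over all Jun regions, and the 2 comparisons share the untreated libraries, so they are a description. Taken singly, the comparisons called 13.1% and 28.0% of all Jun regions tested higher. The first count ranged from 978 to 1433 with 1 Jun library left out. The largest changes at 6 h, by the rule for named regions, lay inside SHANK2, DOT1L and LOC339685 and nearest to SUPT20HL2 (39632 bp away) and LAMC1 (31932 bp away). Inside SHANK2, a scaffold gene (chr11:70552314-70554200), Jun was 1.46 and 0.86 CPM at 0 h, 19.1 and 26.1 at 6 h, then 16.3 and 16.6 at 72 h. Its fold change was 4.28 ± 0.32 (log2, SE; adjusted p = 3.74e-08) at 6 h and 3.82 ± 0.31 (adjusted p = 1.27e-08) at 72 h. Inside LOC339685 (chr22:47369481-47371686), 259713 bp from an H3K27ac peak of untreated cells, Jun was 1.75 and 2.44, then 33.4 and 36.7, then 31.0 and 29.1 CPM, while H3K27ac was 0.227 and 0.105, 14.1 and 15.7, and 43.5 and 50.3 CPM. The Jun change from 6 to 72 h at LOC339685 was -0.22 as fitted and 0.34 with factors from regions with peaks in all libraries, and a call under neither (adjusted p = 0.392 and 0.101). Inside DOT1L, a histone H3 lysine 79 methyltransferase (chr19:2188724-2189561), Jun was 0.875 and 0.573, 12.9 and 12.6, and 6.23 and 4.29 CPM, both later times above 0 h (adjusted p = 4.95e-07 and 9.05e-06). At 72 h the largest changes were those nearest to BMP7, 178821 bp away, and inside LOC339685, LOC124901788, SHANK2 and LOC124901991, with log2 fold changes of 4.0, 3.83, 3.82, 3.82 and 3.8. BMP7 encodes a growth factor of the TGF-beta family; Jun there was 0.438 and 0.43 CPM at 0 h, 2.04 and 9.49 at 6 h, then 6.89 and 7.34 at 72 h, and its call at 6 h ended without 6 h replicate 2 (adjusted p = 0.0512).

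At other regions Jun went the other way and fell, with 83 Jun regions called lower at 6 h and 283 at 72 h. The lowest fold changes at 6 h were inside LMTK2, MXI1 and GDPD5. MXI1 encodes a repressor that competes with MYC for its partner MAX; Jun there was 25.8 and 28.7 CPM at 0 h, 4.54 and 10.6 at 6 h, then 5.75 and 6.20 at 72 h (log2 fold change -1.81 ± 0.27 SE at 6 h, adjusted p = 4.04e-05, and -2.19 ± 0.23 at 72 h, adjusted p = 2.11e-07). Its H3K27ac was 14.9 and 14.7, 17.1 and 16.1, and 9.59 and 8.49 CPM, 76 bp from a peak of untreated cells. Inside LMTK2, a membrane kinase, Jun was 11.7 and 9.32 CPM at 0 h, 2.72 and 2.37 at 6 h (adjusted p = 7.01e-05) and 7.99 and 8.19 at 72 h, where it did not pass the test against 0 h (adjusted p = 0.164). At 72 h the lowest were at NR4A1, LOC102725228 and PFKFB3. PFKFB3 makes the activator of glycolysis fructose-2,6-bisphosphate, and Jun inside it (chr10:6247959-6248338) was 22.5 and 30.7 CPM at 0 h, 55.6 and 48.0 at 6 h, then 6.85 and 4.41 at 72 h. The 3 times did not overlap: 6 h stood above 0 h (0.96 ± 0.22 SE, adjusted p = 0.00241) and 72 h below it (-2.24 ± 0.23, adjusted p = 1.37e-07). Without 0 h replicate 1 the first of these calls ended (adjusted p = 0.0707). Rad21 over the same region was 34.4 and 39.0 CPM at 0 h and 67.4 and 114 at 72 h (adjusted p = 0.000813), a call that ended without 72 h replicate 2 (adjusted p = 0.0677).

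The regions were then split by Jun peaks in untreated cells. Both 0 h libraries had a Jun peak over 1192 regions, 1 library over 421 and neither over 1100. H3K27ac medians were 2.84 and 2.85, 12 and 11.4, and 14.5 and 14.3 CPM in the first group, and 2.1 and 2.06, 10.4 and 10.1, and 13.2 and 13.5 CPM in the last. The regions with a Jun peak in 1 library had 15.0 and 15.2 CPM at 72 h, above both, so the 72 h levels followed no order, and the differences were not tested. Jun itself was called higher at 6 h over 45.6% of the Jun regions of the first group, 61.8% of the second and 66.7% of the third, with median log2 fold changes of 0.54, 1.02 and 1.33. At 72 h the shares were 36.1, 62.0 and 70.8%, and lower calls were 18.2, 5.01 and 1.42%. The split used Jun at 0 h, which both comparisons contain, so these Jun shares are a description.

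The regions were also sorted by edgeR's call for H3K27ac from 6 to 72 h, 1237 higher, 885 not called and 591 lower, as a way to lay out other measures and not as a test. With factors from regions with peaks in all libraries the same sorting would give 1547 higher and 346 lower. H3K27ac medians in the first group were 2.27 and 2.32, 12.3 and 11.7, and 25.9 and 27.1 CPM, and in the last 2.90 and 2.79, 11.7 and 10.9, and 6.48 and 6.05 CPM. Both groups thus stood near each other at 6 h and apart at 72 h, which the split fixes. In Jun, which the split did not use, 62.4% of the regions over the first group and 50.4% over the last were called higher at 6 against 0 h. At 72 against 0 h these shares were 73.4% and 25.9%, with 3.26% and 20.5% lower and median log2 fold changes of 1.13 and 0.04. In Rad21 75.1% and 42.6% were called higher at 72 against 0 h, with median log2 fold changes of 1.83 and 1.13. The difference between the groups was not tested.

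The widest later rises of H3K27ac, from 6 to 72 h, were inside ADGRF4, an adhesion receptor gene, 25031 bp from LYZL1 and inside CNIH3. At ADGRF4 H3K27ac was 1.02 and 0.843, 4.34 and 3.89, and 46.9 and 54.8 CPM, and Jun was 10.8 and 9.46, 9.08 and 17.5, and 30.3 and 31.2 CPM. Jun there did not pass the test at 6 h (adjusted p = 0.265) and stood above every earlier library at 72 h (adjusted p = 6.72e-06 against 0 h). The largest falls were nearest to ZDHHC14 (69017 bp away), nearest to YWHAZ (32051 bp away) and inside MDM2, which encodes the ubiquitin ligase of p53. At MDM2 (chr12:68827018-68828239) H3K27ac was 2.16 and 1.53, 23.4 and 21.1, and 6.70 and 5.90 CPM. Jun there was 1.46 and 4.59, 10.4 and 13.5, and 4.23 and 3.99 CPM, above 0 h at 6 h (1.99 ± 0.36 SE, adjusted p = 0.000346) and not at 72 h (adjusted p = 0.315). At the region nearest to ZDHHC14, a palmitoyltransferase gene, both marks took the same course, H3K27ac with 4.26 and 2.79, 26.2 and 25.4, and 5.94 and 5.06 CPM and Jun with 9.92 and 8.31, 19.1 and 22.8, and 8.99 and 8.96 CPM.

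Rad21 rose over many of these regions by 72 h, with and without a CTCF peak. Rad21 peaks overlapped 9.69 and 14.1% of the 2713 regions at 0 h and 53.9 and 39.8% at 72 h, although the lists held 34680 and 59005 peaks at 0 h and 33048 and 25687 at 72 h. No peak at 0 h and a peak in both libraries at 72 h was seen over 603 regions (22.2%). The same held for 3.79% of regions with H3K27ac peaks at every time and 5.18% of those at 72 h only. Of the 603, 312 had no CTCF peak in any library, a smaller share than the 69.9% (1897) over all 2713. The 312 are 11.5% of the 2713, against 1.87% and 3.23% in the other 2 classes. These differences were not tested. The Rad21 table holds 2369 regions overlapping 2084 of the 2713, of which 2306 could be tested. Their median level was 2.36 and 2.32 CPM at 0 h and 6.85 and 6.60 CPM at 72 h, without overlap. The median log2 fold change was 1.56, against -0.05 over all 83750 Rad21 regions tested. Over regions with H3K27ac peaks at 72 h only it was 1.59, near that of the gained and kept regions. Rad21 was called higher at 1464 (61.8%) and lower at 5, where 15.4% of all Rad21 regions tested were called higher and 7.91% lower, and 20.8% and 8.14% of those overlapping any H3K27ac region. At a mean count of at least 50, 372 of the 2369 were tested and 249 of these called higher. The share of 10.5% given next for that filter is taken over all 2369. Without 72 h replicate 1 the share called higher was 37.0%, DESeq2 called 36.6%, and a filter at a mean count of 50, under which fewer regions were tested, left 10.5%. The 5 lower calls came to 0 without 0 h replicate 1.

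CTCF was sparse over the gained and kept regions. A CTCF peak overlapped 8.0 and 6.30% of them at 0 h, 5.49 and 7.34% at 6 h, then 13.5 and 25.9% at 72 h; 1897 (69.9%) had none in any of the 6 libraries and 110 had one in all 6. The CTCF table holds 1246 regions overlapping 1163 members, 1156 of them tested, with median levels of 1.78 and 1.44 CPM at 0 h, 3.89 and 2.44 at 6 h, then 5.30 and 5.34 at 72 h. At 6 against 0 h 43 (3.45%) were called higher and 2 lower, beside 2.33% and 0.325% of all CTCF regions tested and 0.927% and 0.675% of those overlapping any H3K27ac region, and the higher calls came to 0% without 0 h replicate 1, 0.722% without 0 h replicate 2, 2.01% without 6 h replicate 1 and 7.87% without 6 h replicate 2. Over regions with H3K27ac peaks at 72 h only, 18.0% of CTCF regions were called higher at 72 against 0 h, with a median log2 fold change of 1.40. Over gained and kept regions 266 (21.3%) were called higher at 72 against 0 h and 11 lower, with a median of 1.56, beside 4.07% and 2.72% of all and 7.47% and 2.67% of those overlapping H3K27ac. This share went from 0.0803% without 0 h replicate 2 and 1.20% without 0 h replicate 1, and 3.93% and 3.77% without 72 h replicates 1 and 2, to 39.7% and 40.8% without 6 h replicates 1 and 2, and the 11 lower calls went from 0 without 0 h replicate 2 to 20 without 6 h replicate 1. At 72 against 6 h 6 were called higher and 5 lower, beside 0.449% and 1.73% of all and 0.679% and 0.432% of those overlapping H3K27ac, and the higher calls ran from 0.0803% without 72 h replicate 1 to 5.30% without 6 h replicate 1. Counts over these CTCF regions were low, so CTCF is given as levels and no weight is put on its calls.

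Members with no CTCF peak in any library had a higher Rad21 region in 842 of 1897 cases (44.4%), with median Rad21 levels of 2.04 and 1.90 CPM at 0 h and 5.95 and 5.47 CPM at 72 h and a median log2 fold change of 1.59. Those with a CTCF peak in 1 to 5 libraries had one in 485 of 706 cases (68.7%), with a median of 1.63. Those with a CTCF peak in all 6 libraries had one in 38 of 110 cases (34.5%), with a median of 0.46 and higher levels from the start, 7.78 and 6.44 CPM at 0 h against 10.5 and 9.99 CPM at 72 h. The 842 came to 468 without 72 h replicate 1, and the difference between the 3 groups was not tested. Both Jun and Rad21 were called higher at 72 against 0 h over 972 regions (35.8%), Rad21 without Jun over 393, and none of the 3 proteins over 863 (31.8%). Over all 94896 H3K27ac regions, which are narrower, both were called higher at 6.50%, Rad21 without Jun at 3.35%, all 3 at 0.857% and none at 73.0%. The 972 came to 658 without Rad21 72 h replicate 1 and to at most 1031. All 3 proteins were higher over 199, a count that fell to 1 without CTCF 0 h replicate 2.

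The largest Rad21 changes by the naming rule were inside ARHGAP22 and nearest to CD300LB (7496 bp away) and DUSP6 (278618 bp away). ARHGAP22 encodes a GTPase-activating protein, and its region (chr10:48605504-48607892) lies 431 bp from a start site. Rad21 there was 0.943 and 0.844 CPM at 0 h and 15.0 and 16.2 at 72 h (4.08 ± 0.41 SE, adjusted p = 1.93e-06), Jun was 4.96 and 4.87, 23.6 and 28.5, and 46.4 and 39.2 CPM, and H3K27ac was 0.568 and 0.422, 12 and 9.35, and 86.0 and 95.9 CPM. All 3 thus stood higher at 72 h than in any untreated library. At the region nearest to DUSP6, which encodes a phosphatase of ERK, Rad21 was 0.472 and 0.633 CPM at 0 h and 13.1 and 11.7 at 72 h (adjusted p = 2.92e-06), and near CD300LB, a receptor gene of myeloid cells, 0.314 and 0 against 11.2 and 11.1 CPM (adjusted p = 2.92e-06). The smallest were nearest to ACSL3 (62440 bp away) and GSDMC (6701 bp away) and inside TUFT1, where Rad21 was 7.23 and 5.91 against 2.53 and 1.51, 17.1 and 11.4 against 6.40 and 6.03, and 50.8 and 32.7 against 25.5 and 21.1 CPM. These 3 passed the test (adjusted p = 0.00807, 0.00597 and 0.0184), and each call ended without 0 h replicate 1 (adjusted p = 0.112, 0.231 and 0.467) and without 72 h replicate 2 (0.138, 0.12 and 0.341). The largest CTCF changes were inside LOC124903749 and TBXAS1 and nearest to RPE65 (42947 bp away). Inside TBXAS1, which encodes thromboxane synthase of platelets (chr7:139888834-139889951), CTCF was 1.53 and 4.69 CPM at 0 h, 12.6 and 15.9 at 6 h, then 22.1 and 20.4 at 72 h, and Rad21 1.1 and 2.32 against 11.6 and 10.7 CPM. Its CTCF call at 72 h (adjusted p = 0.00274) ended without 0 h replicate 1 (adjusted p = 0.0535), and its Rad21 call (adjusted p = 5.69e-05) was kept with any library left out. The smallest were inside LOC100420576 (27.3 and 26.7, 9.71 and 6.10, and 6.91 and 7.16 CPM), inside FLYWCH1 and near KNG1. The calls at FLYWCH1 and KNG1 ended without either 0 h or either 72 h replicate (adjusted p = 0.0549 to 0.184), those at LOC100420576 and RPE65 without 0 h replicate 2 (0.0659 and 0.0584), and that at LOC124903749 without either 0 h replicate (0.0597 and 0.0659).

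The regions with the most H3K27ac at 6 h, after the CPED1 region described above, were inside LUZP1 and MAP3K20 and nearest to REEP3 (81306 bp away) and COMMD3-BMI1 (6524 bp away). MAP3K20 encodes a stress-activated kinase upstream of JNK and p38; its region (chr2:173150941-173153725) held 3.92 and 3.37 CPM of H3K27ac at 0 h, 85.5 and 93.1 at 6 h, then 85.6 and 95.7 at 72 h. Jun there was 7.44 and 6.88, 50.2 and 61.1, and 39.3 and 36.2 CPM, above 0 h at both times (2.96 ± 0.22 SE, adjusted p = 3.56e-08; 2.40 ± 0.21, adjusted p = 2.82e-08). At the region nearest to REEP3, an endoplasmic reticulum protein gene, H3K27ac went from 5.05 and 4.90 to 83.1 and 93.8 and 104 and 120 CPM while Jun stood at 67.1 and 62.5, 66.3 and 91.6, and 59.6 and 55.6 CPM and passed the test at neither time (adjusted p = 0.316 and 0.48). Rad21 over the same stretch was 7.08 and 12 CPM at 0 h and 36.5 and 27.1 at 72 h (adjusted p = 0.000126).

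The most H3K27ac at 72 h was inside DGKI, CD58 and ATP2B2 and nearest to FASLG (30236 bp away) and ABCA4 (13819 bp away). DGKI encodes a kinase that removes diacylglycerol; its region (chr7:137771703-137775135) held 0.909 and 0.527 CPM at 0 h, 23.6 and 21.5 at 6 h, then 169 and 200 at 72 h. Jun there was 5.54 and 6.31, 15.0 and 21.0, and 40.7 and 38.2 CPM, each time above the one before (adjusted p = 5.63e-05 at 6 against 0 h and 0.000352 at 72 against 6 h). Rad21 was 2.04 and 2.32 CPM at 0 h and 18.2 and 14.1 at 72 h (2.89 ± 0.35 SE, adjusted p = 7.2e-06). CD58 encodes an adhesion protein that binds CD2; H3K27ac inside it was 17.7 and 15.1, 55.4 and 56.2, and 148 and 160 CPM, and Jun 17.1 and 18.3, 56.5 and 54.4, and 53.1 and 52.4 CPM. Jun at CD58 stood above 0 h at both times (adjusted p = 3.57e-06 and 8.52e-07). Its log2 change from 6 to 72 h was -0.07 as fitted, 0.29 with total counts and 0.49 with the factors from regions with peaks in all libraries, the last a call (adjusted p = 0.0201), while acetylation as fitted was higher in both 72 h libraries than in either at 6 h.

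Of the 210 genes on 12 pathway lists, 48 (22.9%) had a gained and kept region in their span or within 10000 bp of it, against 2002 of all 19974 protein-coding genes (10.0%). The lists were drawn up with results of these data known, so the 2 shares are a description. Over the 67 regions of these 48 genes Jun was called higher at 44 of 72 Jun regions at 6 h and lower at 6, and higher at 34 and lower at 12 at 72 h. Over all gained and kept regions 56.6% were higher at 6 h and 54.0% at 72 h, and over all Jun regions 13.1% and 28.0%, which is the background for each list below. Rad21 was higher at 44 of 66 regions and lower at 0, and at 25 without 72 h replicate 1. The medians were 0.97, 0.49 and 1.61, beside 0.06, 0.17 and -0.05 over all regions of each antibody. Rad21 was called higher at 61.8% of its regions over all gained and kept regions, and at 15.4% of all Rad21 regions tested.

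Among the genes that carry the signal, 6 of 16 for protein kinase C and diacylglycerol had a region: DGKZ, PRKCA, PRKCB, PRKCE, PRKCH and PRKCZ. Jun was higher at 7 of their 8 Jun regions at 6 h and at 4, with 1 lower, at 72 h; the 7 came to 3 without 0 h replicate 2. At the stronger of 2 regions of PRKCB, a classical isoform, H3K27ac was 8.69 and 8.75, 26.4 and 27.5, and 41.8 and 43.9 CPM. Jun there was 8.31 and 3.01, 21.8 and 23, and 21.9 and 23.2 CPM, both later times above 0 h without overlap (1.99 ± 0.29 SE, adjusted p = 3.95e-05; 2.00 ± 0.27, adjusted p = 4.19e-06). At the stronger of 2 regions of PRKCA, the other classical isoform with a region here, H3K27ac was already 46.7 and 44.3 CPM at 0 h, with 37.7 and 42.0 at 6 h, then 55.0 and 60.3 at 72 h. Jun in this region of PRKCA was 29.5 and 38.1, 20.4 and 28.5, and 16.7 and 16.4 CPM, lower at 72 h (adjusted p = 0.000179), a call that ended when scaled by total counts. At the other PRKCA region Jun was called higher at both times. Inside PRKCH, another isoform, Jun was 10.2 and 9.46, 17.5 and 24.5, and 24.8 and 25.9 CPM (adjusted p = 0.001 and 1.37e-05).

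MAP kinase feedback genes had a region at 6 of 14: DUSP1, DUSP2, DUSP5, DUSP10, DUSP16 and SPRED2. Jun over these was higher at 2 of 7 regions and lower at 2 at 6 h, and higher at 0 and lower at 3 at 72 h, with 1 higher at 6 h without 0 h replicate 2. Near DUSP5, a nuclear phosphatase of ERK, H3K27ac was 4.26 and 4.69, 33.3 and 34.0, and 30.3 and 29.7 CPM, whereas Jun was 27.3 and 20.6, 25.6 and 32.5, and 8.80 and 10.4 CPM. The 72 h Jun values there lay below both earlier times (-1.31 ± 0.20 SE against 0 h, adjusted p = 1.85e-05). Near DUSP2 H3K27ac was 2.95 and 4.27, 17.8 and 17.9, and 34.8 and 34.5 CPM with little Jun at any time, 2.92 and 2.29, 4.54 and 1.82, and 2.81 and 2.21 CPM. Inside DUSP10 H3K27ac was as high before as after, 40.1 and 40.5, 27.6 and 36.5, and 41.4 and 45.8 CPM, 463 bp from a peak of untreated cells.

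Of the genes for AP-1 itself, 2 of 13 had a region, ATF3 and BATF. At the stronger of 2 regions of ATF3, a stress-induced partner of Jun (chr1:212595721-212597380), H3K27ac was 1.93 and 1.79, 16.9 and 13.5, and 38.9 and 38.8 CPM. Jun was 28.3 and 26.1 CPM there before PMA, 44.7 and 61.1 at 6 h, then 50.1 and 49.5 at 72 h (0.97 ± 0.20 SE, adjusted p = 0.00121; 0.87 ± 0.19, adjusted p = 0.000752). Immediate early genes had a region at 3 of 15, IER2, KLF2 and NR4A1. At the stronger of 2 regions of NR4A1, an orphan nuclear receptor gene (chr12:52032604-52033747), H3K27ac was 2.1 and 2.06, 17.5 and 15.5, and 10.5 and 10.1 CPM. Jun in this region of NR4A1 took the other direction, with 45.9 and 40.6, 8.85 and 18.1, and 8.94 and 8.19 CPM (-1.66 ± 0.24 SE, adjusted p = 3.57e-05; -2.34 ± 0.22, adjusted p = 6.35e-08). At the other region Jun was called higher at 72 h and not at 6 h. A second KLF2 region, downstream of the gene (chr19:16330368-16331528), held 0.681 and 0.79, 10.0 and 7.33, and 3.87 and 2.84 CPM of H3K27ac, and Jun of 10.5 and 13.0, 32.7 and 40.5, and 18.0 and 16.8 CPM, highest at 6 h (1.64 ± 0.21 SE against 0 h, adjusted p = 8.81e-06). The window of KLF2 shown above had 0.227 and 1.26, 7.35 and 6.99, and 2.24 and 2.73 CPM of H3K27ac in its region, that of CXCL1 3.12 and 3.06, 9.03 and 10.9, and 5.07 and 5.79, and that of NFKB2 7.84 and 8.38, 13.0 and 14.1, and 7.49 and 9.47. In all 3 the 6 h libraries were the highest, without overlap with either other time.

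The NF-kappaB and cytokine lists had 2 genes each, NFKB2 and TNIP1 of 14 and CSF1 and CXCL1 of 20. TNIP1 encodes a partner of the inhibitor A20, and in the stronger of its 2 regions H3K27ac was 0.511 and 0.896, 6.23 and 6.05, and 17.4 and 17.4 CPM. Jun there was 2.33 and 2.44, 6.81 and 15.5, and 12.8 and 12.6 CPM (adjusted p = 8.65e-05 and 3.26e-06). Near CSF1, the growth factor of macrophages, H3K27ac was 5.00 and 5.22, 12 and 9.30, and 33.0 and 35.4 CPM and Jun 10.1 and 10.3, 24.5 and 29.4, and 26.1 and 24.5 CPM, with Jun higher at both times (adjusted p = 4.71e-05 and 1.34e-05). At CXCL1 Jun was low throughout, 2.92 and 1.72, 1.13 and 0.547, and 0.571 and 1.06 CPM.

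**Figure D5:**
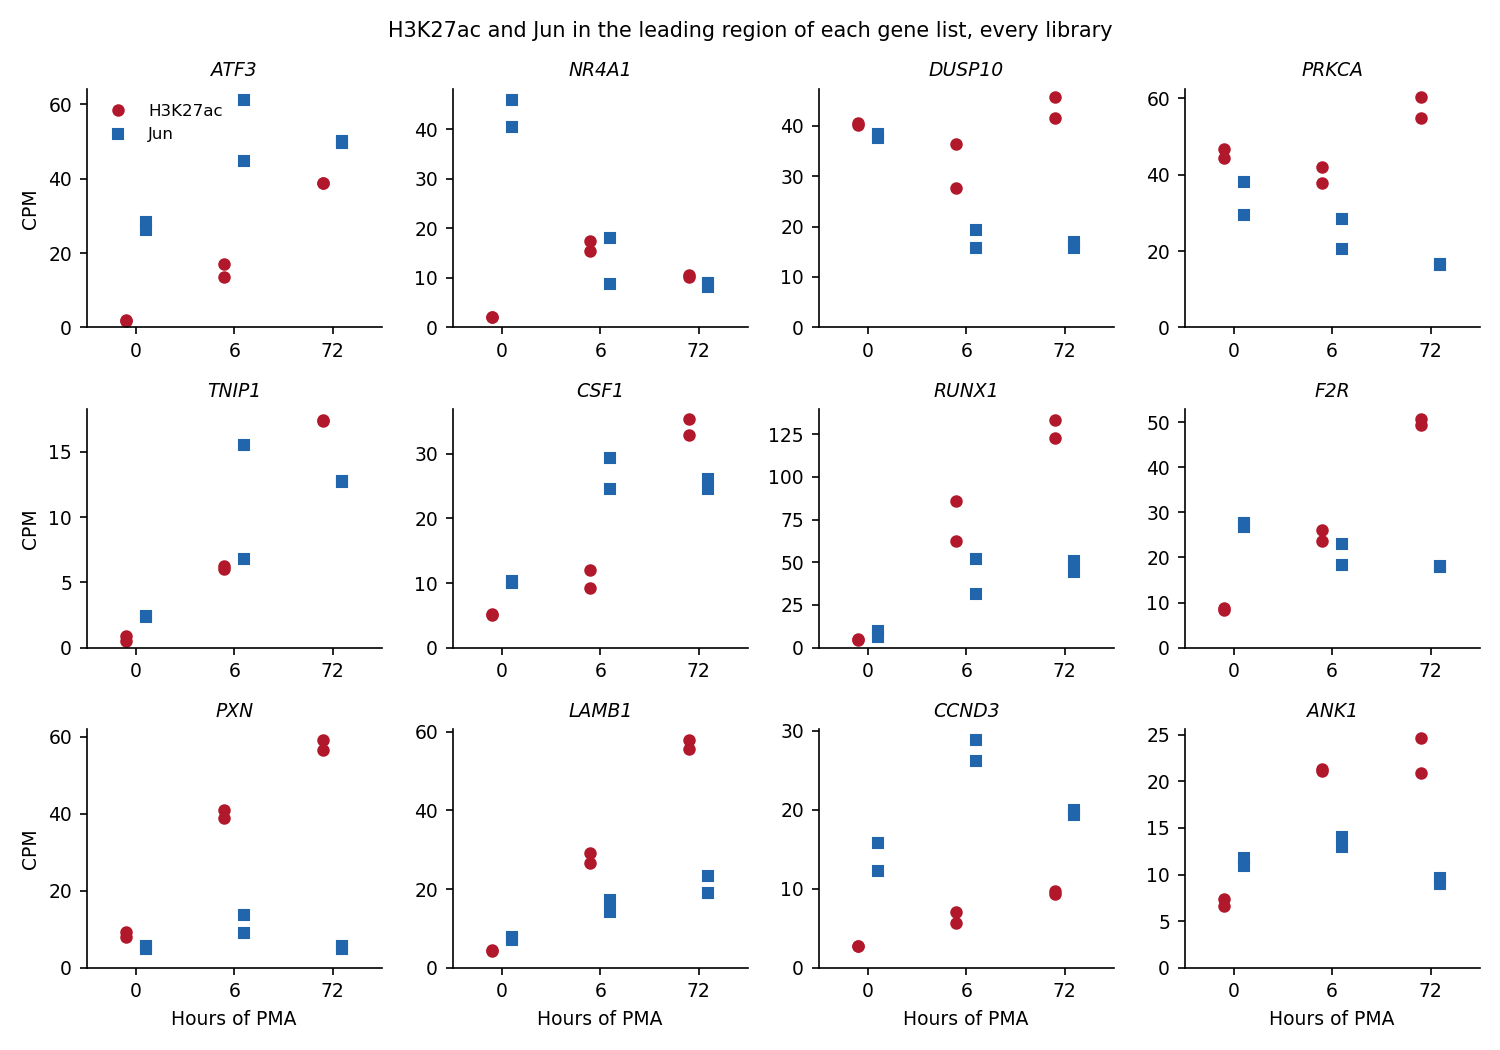
H3K27ac and Jun (CPM, linear axis) in every library at 0, 6 and 72 h of PMA, in the region with the most H3K27ac of each of 12 gene lists. At RUNX1, CSF1, TNIP1, ATF3 and LAMB1 both rise, while at NR4A1 and DUSP10 Jun falls from 45.9 and 40.6 and from 37.5 and 38.4 CPM at 0 h.

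Of 16 megakaryocyte transcription factor genes, RUNX1, ERG and SMAD3 had regions, 6 in all, and Jun over these was higher at 6 of 7 regions at 6 h and 4 of 7 at 72 h, counts that did not change with any 1 library left out. RUNX1, required for megakaryocytes and platelets, had 3 of the 6. Its strongest lay inside the gene (chr21:34806164-34808930), 73151 bp from a peak of untreated cells, with H3K27ac of 4.88 and 4.53 CPM at 0 h, 62.6 and 85.9 at 6 h, then 123 and 133 at 72 h. Jun there was 6.42 and 9.75, 31.6 and 51.6, and 50.9 and 44.4 CPM (2.37 ± 0.26 SE, adjusted p = 1.48e-06; 2.56 ± 0.25, adjusted p = 7.63e-08), and Rad21 0.943 and 1.90 CPM against 8.34 and 7.35 (2.5 ± 0.46, adjusted p = 0.00047). Every later library of the 3 stood above every untreated one. ERG, an ETS factor of early blood and megakaryocyte cells, had a region inside it (chr21:38645413-38647440), 150201 bp from a peak of untreated cells. H3K27ac there was 0.227 and 0.369, 30.7 and 34.4, and 46.1 and 45.9 CPM, Jun 3.65 and 3.44, 25.0 and 33.8, and 25.5 and 22.3 CPM (adjusted p = 8.87e-08 and 2.68e-08), and Rad21 1.26 and 1.90 against 15.0 and 10.7 CPM (adjusted p = 1.46e-05). Inside SMAD3, a signal carrier of TGF-beta, H3K27ac was 1.59 and 2.06, 11.4 and 11.2, and 5.61 and 6.30 CPM, and Jun did not pass the test at 6 h or at 72 h (adjusted p = 0.353 and 0.0597). This was the stronger of 2 SMAD3 regions, and Jun was called higher at 6 h at the other.

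Platelet receptor and granule genes had regions at 7 of 24: CD9, CD63, F2R, GP6, PECAM1, SPARC and TBXAS1. Jun was higher at 5 of 10 regions and lower at 1 at 6 h, and higher at 7 and lower at 1 at 72 h, beside 56.6% and 54.0% higher over all gained and kept regions, with 4 higher at 72 h without 0 h replicate 2. Inside PECAM1, an adhesion receptor of platelets and endothelium, H3K27ac was 1.02 and 1.00, 16.1 and 10.3, and 28.1 and 28.9 CPM. Jun there was 2.92 and 3.73, 33.6 and 39.8, and 26.3 and 26.1 CPM (3.46 ± 0.25 SE, adjusted p = 2.12e-08; 2.97 ± 0.24, adjusted p = 1.13e-08), with all later values above 0 h. The stronger of the TBXAS1 regions (chr7:139877323-139879054) held 2.67 and 2.79, 15.8 and 16.4, and 37.4 and 42.5 CPM of H3K27ac and 2.48 and 3.87, 10.2 and 20.1, and 17.6 and 18.3 CPM of Jun (adjusted p = 2.54e-05 and 7.03e-07). The region within 10000 bp of GP6, the collagen receptor of platelets, lies in the span of RDH13 and had as much H3K27ac before PMA as after, 25.6 and 27.7, 19.5 and 20.8, and 27.8 and 29.3 CPM.

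Adhesion and cytoskeleton genes had regions at 8 of 24: ACTN1, ITGA3, ITGA5, ITGA6, MYH9, PXN, TPM4 and TUBB1. Over their 13 regions Jun was higher at 10 of 14 Jun regions at 6 h and lower at 0. At 72 h it was higher at 8 and lower at 2, beside the same 56.6% and 54.0% for the 2 times. Rad21 was higher at 10 of 11, beside 61.8% over all gained and kept regions and 15.4% of all Rad21 regions tested. The 10 at 6 h came to 5 without 6 h replicate 2, and the 10 of Rad21 to 6 without 72 h replicate 1. ITGA3 encodes an integrin subunit that binds laminin, and in the stronger of its 2 regions H3K27ac was 0.909 and 0.949, 12 and 9.60, and 48.6 and 56.8 CPM. Jun there was 8.60 and 4.30, 12.5 and 10.6, and 21.4 and 19.4 CPM, higher at 72 h (1.66 ± 0.25 SE, adjusted p = 1.08e-05); the call at 6 h (adjusted p = 0.0364) ended without 0 h replicate 2, either 6 h replicate or either 72 h replicate (adjusted p = 0.0706 to 0.383). At the strongest of 4 regions of PXN (chr12:120262382-120265392) H3K27ac was 9.43 and 7.90, 40.9 and 38.9, and 56.5 and 59.1 CPM, while Jun was 4.96 and 5.73, 13.6 and 9.12, and 5.71 and 4.97 CPM. Jun there at 72 h was back among the untreated values (adjusted p = 0.989), and its call at 6 h (adjusted p = 0.00822) ended without 6 h replicate 1 (adjusted p = 0.0896) and without 0 h replicate 1 (0.0611). Over all 4 PXN regions Jun was called higher at 2 of 4 Jun regions at 6 h, and higher at 1 and lower at 1 at 72 h. MYH9 encodes a nonmuscle myosin heavy chain whose mutations give large platelets, and in the stronger of its 2 regions H3K27ac was 2.44 and 3.43, 19.6 and 20.5, and 30.8 and 33.2 CPM. Inside TUBB1, the beta-tubulin of platelets, H3K27ac was 24.1 and 27.9, 23.2 and 23.1, and 31.2 and 29.3 CPM, so it too was acetylated before PMA.

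Protease and matrix genes had regions at 6 of 18, among them LAMB1, LAMC1, PLAT, PLAU and TIMP2. Jun was higher at 6 of their 7 Jun regions at 6 h and 4 at 72 h, the latter from 3 to 5 with 1 library left out. The LAMC1 region of the list (chr1:183021925-183023049) held 1.59 and 1.53, 19.7 and 20.4, and 15.3 and 14.7 CPM of H3K27ac, and its Jun region was called higher at 6 h and not at 72 h. A further region 31932 bp from LAMC1, outside the distance the list allows and named for its Jun change at 6 h (chr1:182989500-182991488), held 0.738 and 1.00, 42.6 and 44.4, and 29.9 and 32.6 CPM of H3K27ac. Jun there was 1.31 and 4.01, 36.3 and 50.5, and 33.7 and 27.2 CPM (4.02 ± 0.32 SE, adjusted p = 5.01e-08; 3.50 ± 0.31, adjusted p = 2.71e-08). Inside LAMB1, another laminin chain, H3K27ac was 4.60 and 4.22, 29.1 and 26.7, and 55.7 and 57.9 CPM and Jun 7.0 and 7.74, 17.3 and 14.2, and 23.3 and 19.0 CPM (adjusted p = 0.00196 and 6.28e-06). Near PLAU, the urokinase gene, H3K27ac was 3.52 and 3.27, 11.8 and 10.1, and 47.0 and 56.8 CPM, Jun 10.6 and 9.17, 17.9 and 22.4, and 34.9 and 28.4 CPM (adjusted p = 0.00195 and 1.34e-06) and Rad21 2.20 and 2.32 against 11.6 and 10.4 CPM (adjusted p = 0.000142).

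The cell cycle list had 1 gene of 13, CCND3, and the erythroid list 2 of 23, ANK1 and KLF1. Inside CCND3, the cyclin D of megakaryocyte polyploidy, H3K27ac was 2.78 and 2.74, 5.67 and 7.09, and 9.66 and 9.36 CPM and Jun 12.3 and 15.8, 26.1 and 28.8, and 19.9 and 19.4 CPM, higher at 6 h (adjusted p = 0.00143). Its call at 72 h (adjusted p = 0.0407) ended without 0 h replicate 1 and without either 72 h replicate (adjusted p = 0.2 to 0.326). The region within 10000 bp of KLF1, the master erythroid factor, lies in the span of GCDH (chr19:12890726-12891245) and had fewer counts later in spite of its peaks: H3K27ac was 13.7 and 12.6, 6.30 and 5.86, and 3.11 and 2.00 CPM. Jun there fell too, with 18.7 and 17.9, 4.54 and 8.39, and 4.42 and 4.67 CPM (-1.47 ± 0.27 SE, adjusted p = 0.000317; -2.01 ± 0.23, adjusted p = 5.11e-07). At the strongest of 3 regions of ANK1, the ankyrin of red cells, H3K27ac was 6.64 and 7.43, 21.1 and 21.3, and 20.8 and 24.7 CPM, and Jun passed the test at neither time (adjusted p = 0.452 and 0.257), while over the 3 it was called higher at 2 Jun regions at 6 h and 1 at 72 h.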

How the data were processed

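CUT&RUN-type libraries of H3K27ac, Jun, CTCF and Rad21 from K562 cells were analysed from the authors' deposited tables of raw counts per region and library, and from peak lists called for each library separately. Per the submitters' processing notes the tools were Trim Galore 0.4.3, BWA 0.7.17, SAMtools 1.9, deepTools 3.0.1, MACS2 and bedtools 2.26. The notes list hg19 and hg38 with no role; contig names and positions fit GRCh38, which is used here. Each peak has the authors' fold enrichment ratio, used only as deposited, and a −log10 q-value, deposited per library. The deposited tables also hold the authors' label of a region's course, a text class and no other measurement. Deposited starts count from 0 and are printed from 1. Depth is the total count per library, given in the report for H3K27ac and Jun and as a range for CTCF and Rad21.

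The members and the gene lists were chosen with earlier results of these data known. Counts of each antibody were fitted over all regions in 1 model of all its libraries (R 4.3.3, edgeR 4.0.16, quasi-likelihood F-test, TMM scaling, filterByExpr), with Benjamini-Hochberg adjustment and a threshold of 0.05. The fits were tested on simulated counts. Rad21 had no 6 h libraries. Alternatives were DESeq2 1.42.0, other scalings and filters, stricter peaks, 2-time fits, a replicate block and each library left out. CPM uses TMM library sizes; tables and figures used Python 3.11.15, pandas 2.3.3, numpy 2.4.6 and matplotlib 3.10.9. A gene is paired with a region by its RefSeq span, otherwise as the nearest span, protein-coding genes first. Promoter windows are RefSeq's, 250 bases long.

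Regions named are the 5 members with the most H3K27ac at 6 and at 72 h, the 5 largest and 3 smallest called Jun changes at each time, 3 and 3 for CTCF and Rad21, and the 3 highest and 3 lowest H3K27ac changes from 6 to 72 h. Changes were ranked among regions at or above the median level with no overlap between times. Genes named are the 10 paired with most members and up to 4 per list with the most H3K27ac; windows shown are those of such genes covered whole by a member. Some genes that the rule names are not reported here.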

Additional observations from a re-analysis of the deposited data

Results flagged for a closer look

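Jun changed direction within the time course over some gained and kept regions. The course was up and then below the start at 11 Jun regions, called higher at 6 against 0 h, lower at 72 against 0 h and lower at 72 against 6 h, and PFKFB3, GTF2IRD1 and CFAP144P1 held 3 of them. At GTF2IRD1, a transcription factor gene, Jun was 25.1 and 49.9 CPM at 0 h, 94.9 and 57.7 at 6 h, then 8.32 and 7.72 at 72 h. The number was 1 without 0 h replicate 1 and 22 without 6 h replicate 1. Neither these 11 nor the next count was taken over all Jun regions, so no background stands beside them. A further pattern was Jun higher at 6 against 0 h and lower at 72 against 6 h. Its 2 comparisons share the 6 h libraries with opposite signs, so a high 6 h value favours both calls by itself. The pattern held at 516 Jun regions. That number was 89 without 72 h replicate 2 and 714 without 6 h replicate 1, and the second step depends on the scaling.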

How the results depend on the processing

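The number of gained and kept regions was 426 with peaks of −log10 q of at least 10 at 6 and 72 h, 867 with that threshold in all 6 lists, and 2816 to 4176 with 1 library left out; it stayed at 2713 with the stricter overlap tried. Of the 867, 426 were among the 2713 and the others were not. The median H3K27ac change at 6 against 0 h, 2.08, was 2.41 with total counts, 2.42 with total counts off the mitochondrial chromosome, 2.43 with factors taken from regions with peaks in all libraries, 2.01 with DESeq2, 2.19 at a mean count of 50, 1.82 over the 867 regions and 2.01 to 2.12 with 1 library left out. At 72 against 0 h, 2.37 became 2.60, 2.59, 3.00, 2.42, 2.55 and 2.04 in the same order, 2.44 with only the 2 times fitted, and 2.34 to 2.39. At 72 against 6 h, 0.25 became 0.15, 0.14, 0.53, 0.36, 0.31 and 0.14, and 0.22 to 0.29. Jun was called higher at 6 h over 42.0% to 59.6% and at 72 h over 39.0% to 57.7% with 1 library left out, and over 83.0% at 72 h with factors taken from regions with peaks in all libraries. From 6 to 72 h Jun was higher over 17.8%, 11.4%, 31.9%, 2.43%, 10.4% and 3.23% in the order given for H3K27ac, and 2.00% to 8.01% with 1 library left out. It was lower over 5.72%, 13.2%, 3.06% and 13.1% with the first 4 settings, 35.8% over the 867 regions, and 4.32% to 30.6%. CTCF at 6 against 0 h was higher over 2.09% with factors taken from regions with peaks in all libraries, 1.44% with DESeq2, 0.963% at a mean count of 50, 1.28% with 2 times, and 0% to 7.87% with 1 library left out. At 72 against 0 h it was 45.9% with total counts, 5.86% with DESeq2, 1.44% at a mean count of 50, 45.0% with 2 times, and 0.0803% to 40.8%. At 72 against 6 h it was 13.6% and 1.85% with the total counts scalings, 0.321% with factors taken from regions with peaks in all libraries, 0.161% with DESeq2, 0.0803% at a mean count of 50, and 0.0803% to 5.30%. Rad21 was higher over 36.6% with DESeq2, 10.5% at a mean count of 50, where fewer regions were tested, and 37.0% to 59.6%. With the factors just named, 4 Jun changes of named regions turned positive: MAP3K20 and DUSP1 at 72 against 6 h (0.0012 and 0.023) and IER2 and F2R at 72 against 0 h (0.20 and 0.18). The shares at a mean count of 50 are of all overlapping regions, tested or not. For Rad21 372 of 2369 were tested and 249 called higher. For CTCF 170 of 1246 were tested, with 18 called higher at 72 against 0 h and 12 at 6 against 0 h. Apart from fewer samples and fewer regions tested, the cause was not tested.

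Replicate numbers are shared between times, but no label pairs them. The difference in log2 CPM between replicates 1 and 2 correlated across regions at −0.022 to 0.124 from time to time. With the replicate number as a block, Jun was higher over 55.7% and 53.1% at 6 and 72 against 0 h, 6.29% higher and 22% lower at 72 against 6 h, CTCF over 4.41%, 29.2% and 1.28%, Rad21 over 63.7%, and the H3K27ac medians were 2.08, 2.36 and 0.25. Only the CTCF share at 72 against 6 h moved by over 1.5 times. Of 226 called tests of named regions, 134 were kept under every alternative run and 92 were lost under at least 1. CTCF and Rad21 had the fewest counts, which limits what their calls can show.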

Other observations

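The authors' deposited table gives each H3K27ac region a label of its course. Of the 2713 gained and kept regions it labels 1118 as upLate, 990 as static, 380 as downEarly, 143 as upEarly and 82 as downLate. Of the 462 labelled down, 461 had a fitted log2 fold change above 0 at 6 against 0 h and 461 at 72 against 0 h. How the labels were assigned is not given in the sources used here, and they were used in no comparison.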
